A study of Mus musculus with 82 samples.

Results

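A set of 52 genes of the DNA damage response and of DNA repair was followed through mouse hematopoietic stem cells (HSC) and the myeloid progenitors that descend from them. The genes were taken by symbol, for their known roles, from 55376 genes counted in every library. All 52 passed the filter on low counts in each of the 8 comparisons between groups of RNA-seq libraries, and the fewest reads that any of them had in a library was 26. They comprise 12 genes of damage sensing and the checkpoint, 11 of homologous recombination, 5 of non-homologous end joining, 9 of the Fanconi anemia pathway, 7 of base excision and single-strand break repair, 2 of mismatch repair and 6 of nucleotide excision repair.

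HSC of male C57BL/6J mice were sorted from the LSK fraction (lineage-negative, Sca-1 and c-Kit positive) as CD150+ cells without CD34 and Flk2, and gave 4 young libraries (3-4 months, each from pooled mice) and 8 old libraries (24-26 months, each from an individual mouse). Old HSC were also transduced with a scrambled control shRNA or with Btaf1 shRNA1 or shRNA2, which target the short variant of Btaf1, a factor that removes the TATA-binding protein from DNA. GFP+ transduced cells gave 2 libraries per construct after 3.5 days of culture with cytokines, and 2 per construct from HSC recovered over 4 months after transplantation. The recovered cells were CD45.2+ LSK CD48- CD150+ cells from lethally irradiated young female CD45.1 recipients, so the cultured and the transplanted arms share the vector and differ in sort, host and time. The labels and the methods do not name the same RNA extraction for the transplanted cells. Common myeloid progenitors (CMP), granulocyte-macrophage progenitors (GMP) and megakaryocyte-erythroid progenitors (MEP) of young mice gave 2 libraries each. Per a figure legend of the study, each transplanted library pools several recipients. The labels do not say that the 2 libraries of a cultured or progenitor group came from separate mice or cultures, so p-values there measure the spread between these libraries, which may be technical.

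Cells answer DNA damage in layers. The kinases ATM, ATR and DNA-PKcs sense breaks and stalled forks and signal through the checkpoint kinases Chek1 and Chek2 to the transcription factor p53, and separate pathways then mend each kind of lesion. Broken ends are joined directly by non-homologous end joining or copied from a sister chromatid by homologous recombination, which needs replicated DNA, while the Fanconi anemia pathway removes crosslinks and its inherited loss causes bone marrow failure. Most HSC rest outside the cell cycle, whereas progenitors divide often.

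Reads on genes numbered 20475764 to 24654742 in the young and old HSC libraries, 37292602 to 42737054 in the shRNA libraries and 33177394 to 36510850 in the progenitors. The HSC libraries had reads on 32867 to 42539 genes and the deeper shRNA and progenitor libraries on 21375 to 25332, and the labels name one library kit for HSC and progenitors and another for the shRNA libraries, while the study's methods give other kits for the HSC and the transplanted libraries. Cell state and library series cannot be told apart where levels are ordered over all 11 groups. Levels are given as counts per 1e6 reads (CPM) after scaling by edgeR's trimmed mean of M-values (TMM). Summed markers followed the labels: HSC markers were 3909.6 to 4089 CPM in young HSC and 707 to 797 CPM in GMP, granulocyte-monocyte markers 71271 to 72538 CPM in GMP and 36.5 to 65.1 CPM in MEP, and erythroid-megakaryocyte markers 7718 to 8232 CPM in MEP and 54.9 to 100.2 CPM in GMP. B cell markers ran from 119.7 CPM to 237 CPM in young HSC replicates 1 to 3, stood at 926 CPM in young HSC replicate 4 and ran over 42.5 to 248 CPM in old HSC. Btaf1 read 149 and 152 CPM in the cultured controls, 116 and 125 CPM with shRNA1 and 119.8 and 122 CPM with shRNA2, and after transplantation 156 and 161, 127 and 135, and 116 and 114 CPM in the same order. These gene-level counts do not separate the short variant from the long one.

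Per kilobase of exon, Trp53, the gene of p53, was the most abundant of the 52 genes in young HSC, at 52.2 ± 1.70 RPKM (CPM per kilobase of exon, SD, n = 4). Parp1, which detects single-strand breaks and marks them with poly(ADP-ribose), followed at 39.5 ± 1.39 RPKM, and the mismatch sensor Msh6 at 36.7 ± 1.56 RPKM. At the other end stood Fancd2, the Fanconi protein that is ubiquitinated at crosslinks (1.18 ± 0.120 RPKM), the end-joining ligase Lig4 (0.584 ± 0.108 RPKM) and the homologous recombination gene Rad51c (0.300 ± 0.0404 RPKM).

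Together the 52 genes took 2509 to 2606 CPM in young HSC, 2363 to 2586 CPM in old HSC, 4532 to 4616 CPM in CMP, 4155 to 4196 CPM in GMP and 5612 to 5765 CPM in MEP. Of the 52, 34 had their highest mean of the 11 groups in MEP, 24 had their lowest in old HSC and 9 in young HSC. Among 15719 genes with a mean above 1 CPM, 29.01% were highest in MEP, 16.01% lowest in old HSC and 12.4% lowest in young HSC. The widest range was that of Fancd2, from 8.64 CPM in old HSC to 135 CPM in MEP (15.7-fold), followed by the recombination mediator Brca1 (11.6-fold) and the end-joining factor Xrcc5 (10.7-fold). The narrowest was that of the nucleotide excision endonuclease Ercc4, from 42.9 to 55.01 CPM (1.28-fold).

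**Figure D1:**
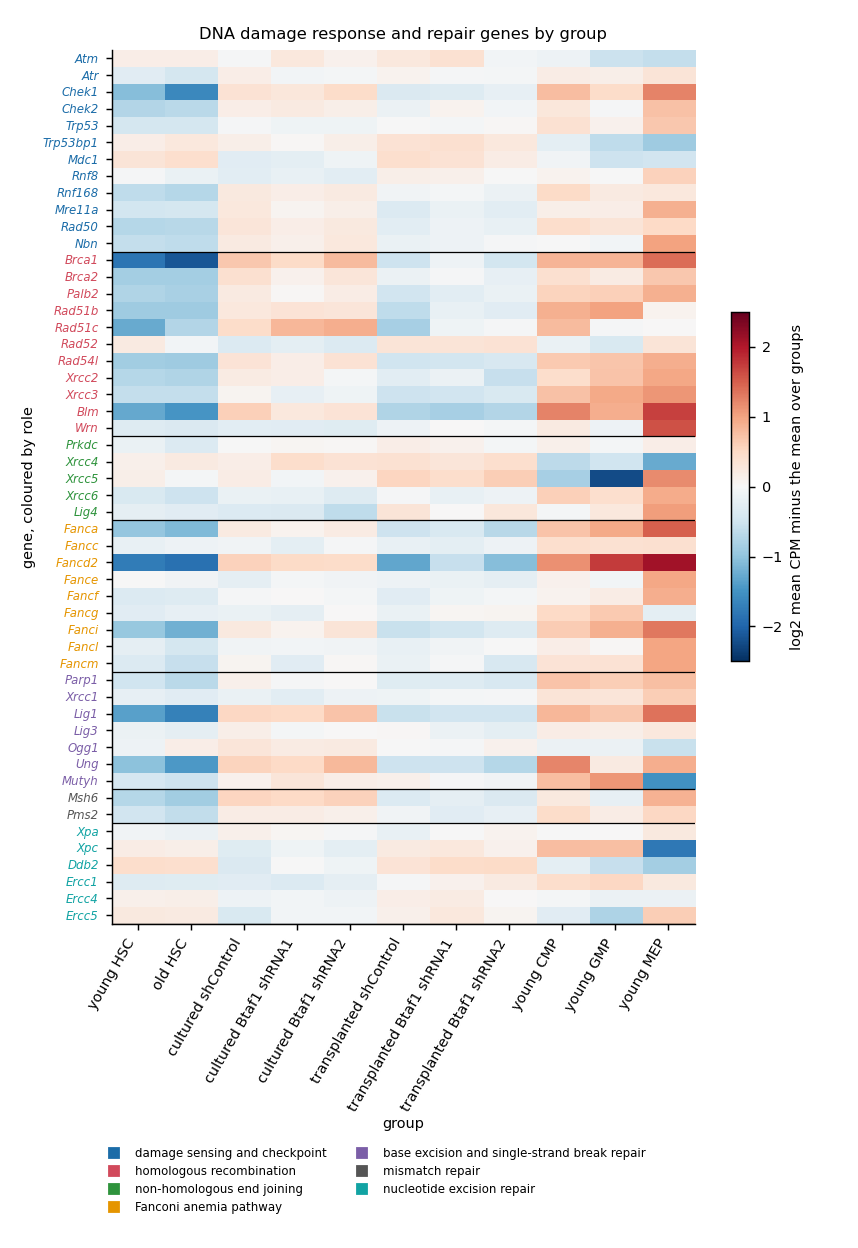
Heat map of the 52 genes (rows, with names coloured by role) in the 11 groups of RNA-seq libraries (columns), where colour is the log2 mean CPM of the group minus the gene's mean over groups. Fancd2, Brca1, Blm and Lig1 are low in young and old HSC and high in MEP, Xrcc5 is lowest in GMP, and Xpc and Mutyh are lowest in MEP.

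Young HSC were compared with CMP to ask how repair genes stand in the stem cell and in an early myeloid progenitor. Of the 52 genes, 32 were lower in HSC and 3 higher (fold above 1.5 and adjusted p below 0.05, edgeR quasi-likelihood test with Benjamini-Hochberg adjustment), where 23.3% of 22360 genes were called lower and 40.8% higher. The median log2 fold change was -0.77 for the 52 genes and 0.33 for all genes. Taken relative to that median of all genes, a setting chosen after seeing the data, 38 of the 52 were lower and 1 higher. The shares of all genes given above belong to the unshifted folds, so these counts have no share beside them. The HSC libraries hold 92 spike-in rows and the progenitor libraries none, so cell type and library series cannot be told apart. In bulk libraries, fewer cells of a type and less RNA per cell cannot be told apart either.

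Transcripts of homologous recombination, the source of error-free break repair in dividing cells, were lower almost throughout. Of the 11 genes, 10 were called lower in HSC (median log2 fold change -1.38), as were 6 of the 9 Fanconi genes, 4 of the 7 base excision genes and both mismatch repair genes. The remaining recombination gene, Rad52, named after its values were seen, passed the adjusted p as higher (24.5 to 28.2 CPM against 19.0 and 20.2 CPM, log2 fold change 0.35). Fancd2 read 9.88, 9.11, 10.4 and 8.21 CPM in the 4 young HSC libraries and 72.3 and 66.4 CPM in CMP. Brca1 read 12.5, 14.4, 12.4 and 15.98 CPM against 90.4 and 86.8 CPM. Blm, a helicase that dissolves recombination intermediates, read 26.3, 21.6, 20.4 and 22.8 CPM against 135 and 123 CPM. None of these ranges overlapped, and the level in HSC was 7.67-fold lower for Fancd2 (log2 fold change -2.94, SE 0.09, adjusted p = 2.2e-15), 6.66-fold lower for Brca1 (-2.74, SE 0.09, adjusted p = 3.3e-15) and 5.89-fold lower for Blm (-2.56, SE 0.08, adjusted p = 4.2e-15).

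Lig1, the ligase that seals replicated and excised strands, read 57.4, 63.2, 56.7 and 60.2 CPM in HSC against 277 and 271 CPM in CMP (log2 fold change -2.26, SE 0.05, adjusted p = 6.0e-17). Ung, which removes uracil from DNA, was 4.97-fold lower in HSC, at 8.56, 6.95, 7.27 and 6.41 CPM against 34.2 and 35.6 CPM (adjusted p = 1.6e-12). Rad51c, at 1.48, 1.40, 1.07 and 1.31 CPM in HSC, was 4.31-fold lower than in CMP, where it read 5.28 and 5.64 CPM (adjusted p = 6.6e-08). All HSC libraries lay below both CMP libraries for these 3 genes. Among the sensors, Trp53 was 1.84-fold lower in HSC (206 to 219.6 CPM against 376 and 374 CPM, log2 fold change -0.88, SE 0.04, adjusted p = 9.3e-13).

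A smaller set went the other way. Xrcc5, a subunit of the Ku heterodimer that caps broken ends, read 50.7, 56.9, 53.1 and 57.4 CPM in HSC and 27.1 and 28.3 CPM in CMP (1.89-fold higher, log2 fold change 0.92, SE 0.08, adjusted p = 3.5e-09). Xrcc4, the scaffold of the end-joining ligase, was 1.64-fold higher (15.6 to 18.9 CPM against 9.39 and 11.1 CPM, adjusted p = 4.4e-05). Ddb2, which recognises ultraviolet lesions, was 1.55-fold higher (46.4 to 48.5 CPM against 30.1 and 28.6 CPM, adjusted p = 1.8e-07), and 23.8% of its exon length is shared with Acp2 on the opposite strand. Relative to the median of all genes, Xrcc5 was the one gene still called higher.

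The kinases at the head of the response sat between these extremes. Atm read 64.1, 65.6, 60.9 and 79.2 CPM in HSC and 55.6 and 54.4 CPM in CMP (log2 fold change 0.24, SE 0.08, adjusted p = 0.017), and its direction turned when folds were taken relative to the median of all genes (-0.091). Atr, the kinase of stalled forks, was 1.45-fold lower (adjusted p = 1.0e-07) and Prkdc, the catalytic subunit of DNA-PK, 1.27-fold lower (adjusted p = 0.0023). Brca2, a mediator of homologous recombination, was 2.48-fold lower, Parp1 2.41-fold lower and the damage-recognition factor Xpc 1.55-fold lower, each with an adjusted p of 2.8e-09 or less. Without CMP replicate 2, Xpc fell short of 1.5-fold (log2 fold change -0.58). All 28 genes of a separate cell cycle list were called lower in HSC (median log2 fold change -2.73), with a summed level of 1818 to 1938 CPM in HSC and 9243 to 9587 CPM in CMP. All 8 granulocyte-monocyte and all 7 tested erythroid-megakaryocyte markers were called lower in HSC. All 10 HSC markers and all 8 interferon response genes were called higher, and B cell markers had 5 of 9 higher and 1 lower. The part of these lists in the difference of the repair genes was not tested. Of 44 other repair genes, 31 were called lower and 0 higher, and those with the largest change were the glycosylase Neil3 (-3.30), the helicase Brip1 (-3.18) and the homologous recombination gene Rad51ap1 (-2.85).

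Promoter sequences of 44 of the 52 genes were found in a RefSeq table of the GRCm38.p6 build that spans 250 bases before to 50 after each start site, 51 promoters in all. They were searched on both strands for letters bound by E2F factors, the regulators of replication genes (TTTGGCGC or TTTCCCGC), for the CCAAT box and for the cell cycle homology letters TTTGAA. The E2F letters occurred in 7 of the 51 promoters (13.7%) and in 1.56% of all 32851 promoters in the table, CCAAT in 58.8% and 37.4%, and TTTGAA in 5.88% and 17.9%. The genes with E2F letters were Chek2, Mdc1, Brca2, Rad51c, Xrcc6, Fancg and Msh6. Shown are 3 promoters with E2F letters whose genes were lower in HSC, that of Mdc1, which has the letters and a log2 fold change of 0.36 (SE 0.10), and that of Xrcc5, which lacks them and whose product pairs with that of Xrcc6. Capitals mark every match to the letters searched, on either strand.
Brca2 (chr5:150522371-150522670, plus strand): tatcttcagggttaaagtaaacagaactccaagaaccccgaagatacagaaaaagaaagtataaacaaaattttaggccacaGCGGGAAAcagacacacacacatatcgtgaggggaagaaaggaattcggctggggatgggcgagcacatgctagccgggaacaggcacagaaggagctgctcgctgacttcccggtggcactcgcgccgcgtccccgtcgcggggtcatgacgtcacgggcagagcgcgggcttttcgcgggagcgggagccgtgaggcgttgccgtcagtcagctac
Rad51c (chr11:87404905-87405204, minus strand): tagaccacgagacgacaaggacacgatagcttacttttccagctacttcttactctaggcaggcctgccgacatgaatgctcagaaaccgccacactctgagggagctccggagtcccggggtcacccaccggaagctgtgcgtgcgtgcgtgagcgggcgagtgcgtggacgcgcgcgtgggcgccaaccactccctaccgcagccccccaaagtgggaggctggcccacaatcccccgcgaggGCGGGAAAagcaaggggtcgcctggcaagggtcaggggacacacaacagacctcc
Xrcc6 (chr15:82016119-82016418, plus strand): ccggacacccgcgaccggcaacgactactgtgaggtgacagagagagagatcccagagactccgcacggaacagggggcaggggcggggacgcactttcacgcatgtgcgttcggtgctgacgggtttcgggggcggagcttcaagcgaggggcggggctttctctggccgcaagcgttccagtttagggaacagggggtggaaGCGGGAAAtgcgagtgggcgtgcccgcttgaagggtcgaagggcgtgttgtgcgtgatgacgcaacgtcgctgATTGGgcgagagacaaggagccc
Mdc1 (chr17:35841248-35841547, plus strand): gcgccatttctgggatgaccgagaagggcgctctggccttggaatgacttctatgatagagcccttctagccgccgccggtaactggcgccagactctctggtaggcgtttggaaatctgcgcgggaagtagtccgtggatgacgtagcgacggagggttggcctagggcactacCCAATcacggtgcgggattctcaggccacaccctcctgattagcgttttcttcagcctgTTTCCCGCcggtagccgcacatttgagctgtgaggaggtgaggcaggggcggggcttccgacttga
Xrcc5 (chr1:72307171-72307470, plus strand): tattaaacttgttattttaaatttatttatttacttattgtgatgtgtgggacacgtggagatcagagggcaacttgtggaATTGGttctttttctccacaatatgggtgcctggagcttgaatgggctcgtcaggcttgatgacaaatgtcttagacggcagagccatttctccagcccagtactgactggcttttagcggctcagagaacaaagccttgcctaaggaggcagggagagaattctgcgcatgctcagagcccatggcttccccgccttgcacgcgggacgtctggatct

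The 7 genes with E2F letters had a median log2 fold change of -1.03 between young HSC and CMP (range -2.11 to 0.36), and the 37 matched genes without them had -0.65 (range -2.74 to 0.92). The range of the first group lies within that of the second. Brca1, Blm and Lig1, among the genes that differed most, held no E2F letters in these windows.

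Control-transduced HSC in culture were compared with control-transduced HSC recovered from recipients, which asks how the genes stand in cells driven by cytokines and in cells that had engrafted. Of the 52 genes, 14 were higher in culture and 3 lower (fold above 1.5, adjusted p below 0.05, edgeR), where 12.6% of 19518 genes were called higher and 15.2% lower. The median log2 fold change was 0.23 for the 52 genes and -0.01 for all genes. Fancd2 read 50.8 and 43.4 CPM in culture and 11.99 and 13.6 CPM after transplantation (3.66-fold, log2 fold change 1.87, SE 0.12, adjusted p = 4.1e-06). Blm read 88.8 and 76.6 CPM against 32.5 and 32.9 CPM (log2 fold change 1.33, SE 0.09, adjusted p = 5.5e-06). Brca1 read 77.7 and 80.03 CPM against 32.1 and 36.7 CPM (log2 fold change 1.19, SE 0.09, adjusted p = 8.8e-06). The cultured pair lay above the transplanted pair for each of these genes.

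Rad51c (2.43-fold, adjusted p = 0.0032), Lig1 (2.10-fold, adjusted p = 4.7e-06) and Ung (2.08-fold, adjusted p = 0.00031) completed the 6 genes that rose most in culture, and 6 of the 11 recombination genes were called higher. The 3 genes called lower in culture were Mdc1, which anchors repair factors at breaks (30.9 and 32.3 CPM against 55.2 and 46.98 CPM), Ddb2 (28.5 and 25.8 CPM against 43.7 and 44.2 CPM) and Rad52, a recombination mediator (18.2 and 16.6 CPM against 28.6 and 26.7 CPM). Their log2 fold changes were -0.70 (SE 0.10, adjusted p = 0.00043), -0.70 (SE 0.09, adjusted p = 0.00027) and -0.68 (SE 0.11, adjusted p = 0.001). Without transplanted control replicate 1, Mdc1 stood at a log2 fold change of -0.58, on the edge of the fold. None of the 5 end-joining genes was called in either direction. Of the 6 nucleotide excision genes, 4 passed the adjusted p below 0.05 as lower in culture (24.3% of all genes) and 0 as higher (24% of all genes), among them Xpc (76.8 and 70.2 CPM against 109 and 103 CPM, log2 fold change -0.54, SE 0.07, adjusted p = 0.00027).

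Trp53 itself read 284 and 278 CPM in culture and 298 and 269 CPM after transplantation (log2 fold change -0.02, SE 0.06, adjusted p = 0.78). Atr (0.07, SE 0.06, adjusted p = 0.33) and Prkdc (-0.20, SE 0.07, adjusted p = 0.051) missed the threshold, while Parp1 (0.42), Brca2 (0.53) and Atm (-0.29) passed the adjusted p without reaching 1.5-fold. Other markers moved with this contrast. HSC markers summed to 1949 to 1966 CPM in culture and 3616 to 3750.4 CPM after transplantation, with 8 of 10 called lower in culture, and erythroid-megakaryocyte markers to 855 to 874 CPM and 198 to 206 CPM. Interferon response genes had 5 of 8 called lower in culture and B cell markers 3 of 4 tested, with 0 of either list called higher. All 28 cell cycle genes passed the adjusted p as higher in culture (median log2 fold change 1.58, summed level 7364 to 7544 CPM against 3084 to 3439 CPM), and the part of these lists in the difference of the repair genes was not tested. Of the 25 p53 target genes, 9 were called higher and 4 lower, Cdkn1a, the cell cycle inhibitor p21, by a log2 fold change of 3.77. Of the 44 other repair genes, 22 were called higher and 2 lower.

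By the sign of the log2 fold change alone, whether or not it passed a test, 31 of the 52 genes lay lower in HSC than in CMP and higher in culture than after transplantation, against 5959 of 18568 genes tested in both comparisons. Pearson's r between the 2 sets of log2 fold changes was -0.88 and Spearman's rho -0.86 across the 52 genes, and -0.28 and -0.44 across all of them. The comparisons share no library, and genes are not independent replicates, so these values are a description.

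**Figure D2:**
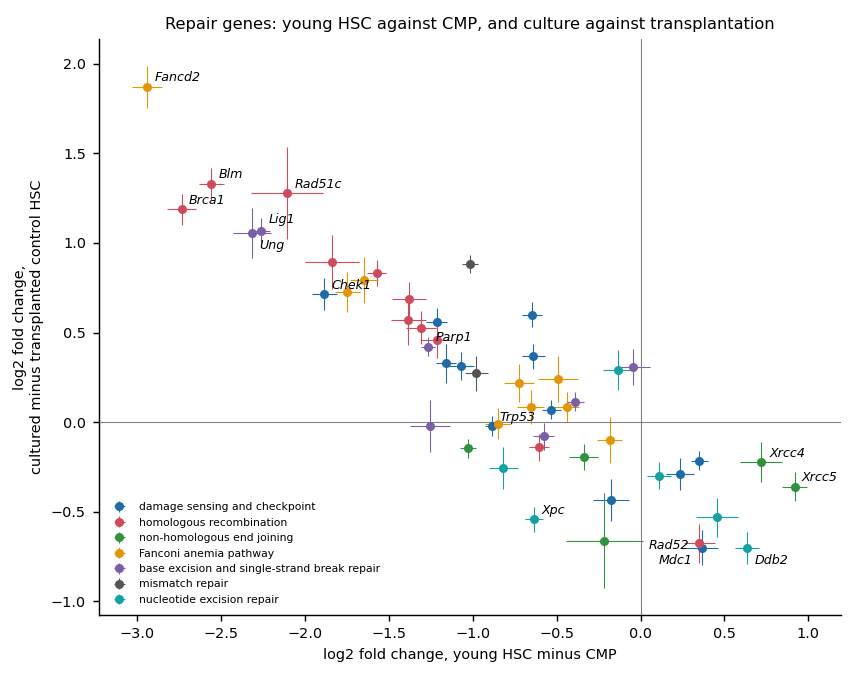
Each point is 1 of the 52 genes, with its log2 fold change between young HSC and CMP on the horizontal axis, that between cultured and transplanted control HSC on the vertical axis, bars of 1 SE and colours by role. Fancd2, at -2.94 and 1.87, lies at the upper left, and Xrcc5, Xrcc4, Ddb2, Mdc1 and Rad52 lie at the lower right.

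Among the progenitors, MEP and GMP were compared as the erythroid and the myeloid branch below CMP, in a fit of these 6 libraries. Of the 52 genes, 16 were higher in MEP than in GMP and 5 lower, where 16.6% of 18234 genes were called higher and 27.2% lower (fold above 1.5, adjusted p below 0.05, edgeR). Median log2 fold changes were 0.27 for the 52 genes and -0.03 for all genes. Against CMP, MEP had 14 genes higher and 8 lower (17.5% and 29.2% of all genes), and GMP had 1 higher and 3 lower (6.24% and 10.5% of all genes). The contrasts of MEP and of GMP with CMP share the CMP libraries. B cell markers were 319 to 341 CPM in CMP, 287 to 381 CPM in GMP and 7.75 to 11.4 CPM in MEP, and their part in these differences was not tested.

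Xrcc5 (ENSMUSG00000026187.8, chr1:72307421-72394952, mm10) moved most between MEP and GMP. It read 109 and 115 CPM in MEP, 27.1 and 28.3 CPM in CMP and 9.39 and 11.4 CPM in GMP. MEP exceeded GMP 10.4-fold (log2 fold change 3.38, SE 0.11, adjusted p = 7.5e-12) and CMP 4.04-fold (2.01, SE 0.10, adjusted p = 5.9e-10), and GMP lay 2.57-fold below CMP (-1.36, SE 0.11, adjusted p = 7.9e-07). Its partner Xrcc6, like Lig4, Mre11a and Rad50 in this comparison, lay outside the rule for naming and was named after its values were seen. Xrcc6 (ENSMUSG00000022471.14, chr15:81987835-82040085), the other Ku subunit, read 256 and 236 CPM in MEP, 198 and 192 CPM in CMP and 176 and 172 CPM in GMP, a span of 1.37-fold between MEP and GMP (log2 fold change 0.45, SE 0.05, adjusted p = 7.3e-06).

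Per kilobase of exon, the ratio of Xrcc5 to Xrcc6 was 0.962 ± 0.0786 in young HSC (SD, n = 4), 0.924 ± 0.0220 in old HSC (SD, n = 8), 0.798 ± 0.0753 in MEP, 0.249 ± 0.0129 in CMP and 0.105 ± 0.0165 in GMP (SD, n = 2 each). The ratio was thus lower in CMP and GMP, where the highest library, one of CMP, stood at 0.258, than in HSC. Its absolute value depends on the exon lengths used. Taken from CPM without exon length, the ratio was 0.509 to 0.605 in young HSC, so the values do not show equal amounts of the 2 transcripts. Xrcc4 was 1.76-fold lower in MEP than in GMP (6.85 and 6.62 CPM against 11.3 and 11.6 CPM, adjusted p = 0.0010), Lig4 was 1.65-fold higher (adjusted p = 0.017, but 0.12 without GMP replicate 2 and 0.12 without MEP replicate 1), and Prkdc read 70.05 and 66.4 CPM against 59.98 and 57.7 CPM (0.16, SE 0.10, adjusted p = 0.17).

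**Figure D3:**
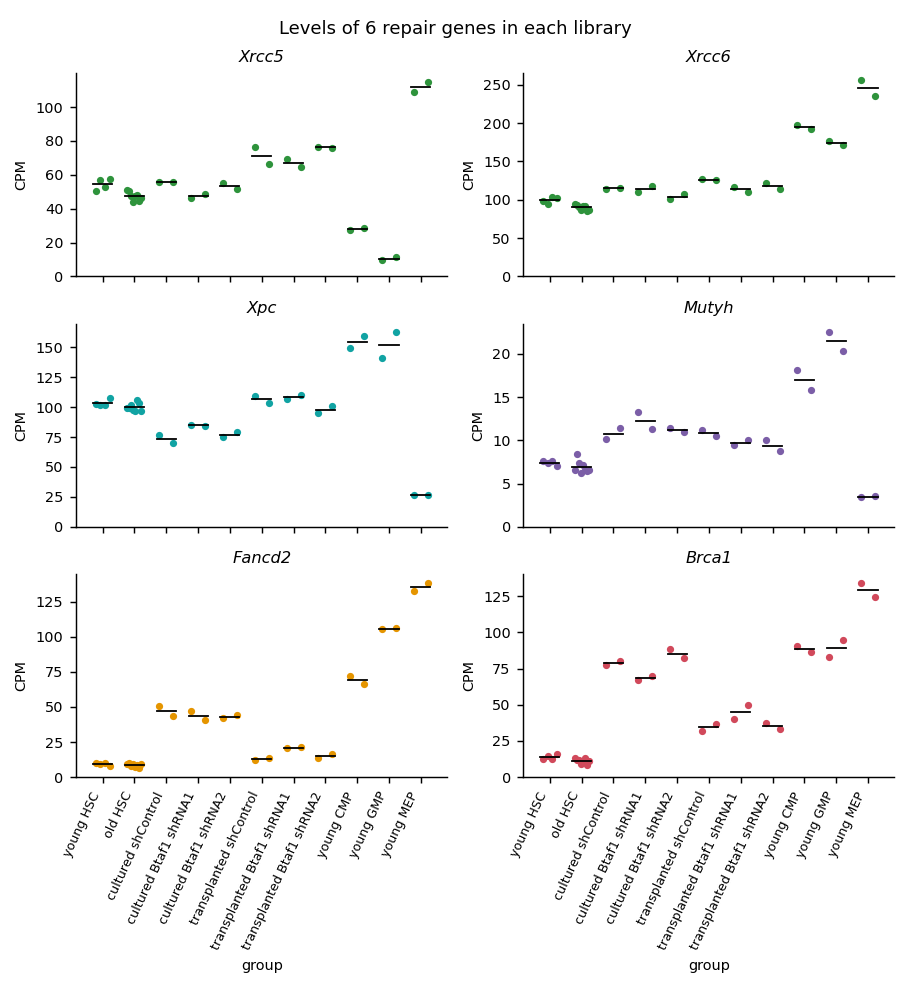
CPM of Xrcc5, Xrcc6, Xpc, Mutyh, Fancd2 and Brca1 in each RNA-seq library (points, coloured by role) with the group mean (horizontal lines), by group. Xrcc5 is lowest in the 2 GMP libraries, at 9.39 and 11.4 CPM, whereas Xpc and Mutyh are lowest in the 2 MEP libraries.

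A pair of excision repair genes was low in MEP against both other progenitors. Xpc (ENSMUSG00000030094.8, chr6:91489305-91515888), which finds helix distortions across the genome, read 26.5 and 26.4 CPM in MEP, 141 and 163 CPM in GMP and 149 and 159.7 CPM in CMP. It was 5.96-fold lower in MEP than in GMP (log2 fold change -2.57, SE 0.08, adjusted p = 8.7e-12) and 5.84-fold lower than in CMP (-2.55, SE 0.08, adjusted p = 1.1e-11). Mutyh (ENSMUSG00000028687.17, chr4:116807723-116819440), which removes adenine mispaired with oxidised guanine, read 3.49 and 3.51 CPM in MEP, 22.6 and 20.4 CPM in GMP and 18.2 and 15.8 CPM in CMP, so that MEP lay 6.33-fold below GMP (adjusted p = 6.8e-09) and 4.84-fold below CMP (adjusted p = 3.4e-08). Ercc5, a nuclease that cuts beside lesions in the same pathway as Xpc, was 2.53-fold higher in MEP than in GMP (31.8 and 33.1 CPM against 13.1 and 11.7 CPM, adjusted p = 2.7e-06). Ddb2 was 1.53-fold lower in MEP than in CMP (20.4 and 18.05 CPM against 30.1 and 28.6 CPM, adjusted p = 0.00046), a fold that dropped below 1.5 without MEP replicate 2.

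The other large increases in MEP over GMP included the RecQ helicase Wrn (337 and 316 CPM against 99.3 and 98.03 CPM, 3.20-fold, adjusted p = 1.0e-11) and Msh6 (497 and 453 CPM against 215 and 236 CPM, 2.04-fold). Nbn, the member of the MRN complex that recruits ATM, read 139 and 133 CPM against 62.8 and 67.4 CPM (2.02-fold), and the Fanconi core gene Fance 59.9 and 54.8 CPM against 27.8 and 28.3 CPM (1.98-fold). Of the rest of the MRN complex, Mre11a was 1.60-fold higher (below 1.5-fold without GMP replicate 2) and Rad50 read 183 and 186 CPM against 153 and 174 CPM (0.12, SE 0.07, adjusted p = 0.16). Lower in MEP than in GMP were Rad51b, a homologous recombination gene (12.1 and 11.3 CPM against 21.5 and 22.5 CPM, 1.94-fold), and Fancg, another Fanconi core gene (34.5 and 36.1 CPM against 65.7 and 65.4 CPM, 1.92-fold).

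Of the 9 Fanconi genes, 7 were called higher in MEP than in CMP (6 without CMP replicate 1, where Fancm fell below 1.5-fold), Fancg was called lower, and Fancc, named like Fancm after its values were seen, did not pass (-0.01, SE 0.10, adjusted p = 0.95). Fancd2 rose 1.96-fold in MEP (133 and 138 CPM) and 1.58-fold in GMP (105 and 106 CPM, log2 fold change 0.66, SE 0.06, adjusted p = 5.2e-06) over CMP. Wrn (2.61-fold), Nbn (2.03-fold), Ercc5 (1.87-fold) and Lig4 (2.14-fold, 7.87 and 6.62 CPM against 3.95 and 2.84 CPM) were also higher in MEP than in CMP. Trp53bp1, which steers breaks towards end joining, was 1.57-fold lower, with 15.04% of its exon length shared with Tubgcp4 on the opposite strand, and Rad51b was 1.73-fold lower. Rad51c read 3.80 and 2.52 CPM in MEP, 3.31 and 2.87 CPM in GMP and 5.28 and 5.64 CPM in CMP, lower than CMP in both (adjusted p = 0.016 and 0.033). These Rad51c calls rest on single libraries: for MEP the adjusted p was 0.076 without CMP replicate 2 and 0.13 without MEP replicate 2, and for GMP it was 0.071 to 0.15 when any 1 of the 4 libraries was left out. Ung was 1.94-fold lower in GMP than in CMP (16.99 and 17.7 CPM against 34.2 and 35.6 CPM, adjusted p = 2.0e-05).

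Trp53 was highest in MEP (456 and 455 CPM), then in CMP (376 and 374 CPM) and in GMP (308 and 310.3 CPM), and each pair differed at an adjusted p of 0.0011 or less. Brca1 (0.49), Brca2 (0.42) and Fancd2 (0.31) passed the adjusted p as higher in MEP than in GMP, whereas Atm (-0.10, SE 0.10, adjusted p = 0.40), Atr (0.12, SE 0.06, adjusted p = 0.14) and Parp1 (0.09, SE 0.05, adjusted p = 0.097) did not pass. Of the 28 cell cycle genes, 10 were called higher and 1 lower in MEP than in GMP, with a summed level of 14755 to 15095 CPM in MEP and 10296 to 10419 CPM in GMP. Against CMP, 15 of them were called higher and 0 lower in MEP, and 8 higher and 0 lower in GMP. The part of the cell cycle genes in these differences of the repair genes was not tested. Of 44 other repair genes, 11 were called higher and 5 lower in MEP than in GMP.

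Old HSC were compared with young HSC, the ageing contrast of the study. Of the 52 genes, 0 were called higher and 0 lower (fold above 1.5, adjusted p below 0.05, edgeR), where 7.52% of 21522 genes were called. DESeq2 also called 0 of the 52, and 18 had an unadjusted p below 0.05 in edgeR, as did 30% of all genes. Without the fold, 11 of the 52 were lower and 1 higher at an adjusted p below 0.05, against 8.67% and 11.9% of all genes. The median log2 fold change was -0.03 for the 52 genes and -0.01 for all genes, and the SE of a gene's fold ranged from 0.04 to 0.21. Without young replicate 4, the library with the highest B cell markers, 7 were lower and 1 higher by that adjusted p, and over all libraries left out in turn 5 to 12 were lower, with 5 without young replicate 3, 6 without young replicate 1 or 2 and 7 without old replicate 8, and 1 to 3 higher, with 3 without old replicate 2 and 2 without old replicate 3 or 8. Red cell genes summed to 14.3 to 17.7 CPM in young and 26.3 to 169.5 CPM in old HSC, with 4 of 5 called higher in old HSC. B cell markers, summed above, had 5 of 9 called lower in old HSC and 0 higher (median log2 fold change -1.73). Granulocyte-monocyte markers summed to 214 to 248 CPM and 433 to 541 CPM, with 2 of 5 tested called higher and 1 lower. Erythroid-megakaryocyte markers summed to 252 to 314 CPM and 232 to 297 CPM, with 1 of 7 tested called higher and 4 lower, and the part of these lists in the differences below 1.5-fold was not tested.

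The sensors and mediators gave small differences: Trp53 0.03 (SE 0.04), Atm 0.02 (SE 0.07), Brca2 0.02 (SE 0.06), Ddb2 0.00 (SE 0.05), Xpc -0.03 (SE 0.04) and Fancd2 -0.10 (SE 0.11), with adjusted p from 0.62 to 0.98 by edgeR. Atr (-0.14, SE 0.06, adjusted p = 0.092), Prkdc (-0.16, SE 0.09, adjusted p = 0.23) and Brca1 (-0.29, SE 0.11, adjusted p = 0.074) did not pass either.

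Of the 12 genes that passed without the fold, those other than Parp1 lay outside the rule for naming and were named after their values were seen. Chek1 (ENSMUSG00000032113.16, chr9:36708482-36727065) changed most. It read 16.01, 16.9, 16.8 and 17.3 CPM in young HSC and 8.68 to 12.4 CPM in old HSC, with a median of 11.4 CPM, so that every old library lay below every young one (1.46-fold lower, log2 fold change -0.54, SE 0.08, adjusted p = 2.4e-05). Lig1 read 57.4, 63.2, 56.7 and 60.2 CPM in young HSC and 38.8 to 52.2 CPM in old HSC, with a median of 49.6 CPM, again without overlap (log2 fold change -0.30, SE 0.07, adjusted p = 0.0022). Rad52 (-0.28, SE 0.07, adjusted p = 0.0060) and Parp1 (-0.16, SE 0.04, adjusted p = 0.0035) also lay wholly below the young range. Ung (-0.38), Fanci (-0.23), Fancm (-0.23), Fancl (-0.20), Xrcc5 (-0.18), Msh6 (-0.13) and Xrcc6 (-0.12) were lower with libraries that overlapped, and each of these 7 lost the adjusted p when 1 library was left out, with values up to 0.21.

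Ogg1, the glycosylase of oxidised guanine, was the one gene of the 52 that passed as higher in old HSC when all libraries were used. It read 19.9 to 20.9 CPM in young HSC and 22.4 to 28.7 CPM in old HSC, with a median of 24.8 CPM, so every old library exceeded every young one (1.24-fold, log2 fold change 0.31, SE 0.06, adjusted p = 0.0010). Of its exon length, 10.6% is shared with Camk1 on the opposite strand. Rad51c also had no overlap (1.07 to 1.48 CPM in young and 1.51 to 2.75 CPM in old HSC) but missed the threshold (0.55, SE 0.21, adjusted p = 0.062), and it was called without old replicate 2 (log2 fold change 0.59, adjusted p = 0.050 by edgeR). Of the 28 cell cycle genes, 12 passed the adjusted p as lower in old HSC and 1 as higher (median log2 fold change -0.27), with a summed level of 1317 to 1637 CPM in old and 1818 to 1938 CPM in young HSC, and their part in the difference of the repair genes was not tested. Among 44 other repair genes, 5 passed as lower, the fork-protection pair Timeless (-0.50) and Tipin (-0.29) among them, both named after their values were seen, and 2 as higher. Of the 25 p53 target genes, Perp (1.29), Plk2 (1.00) and Cdkn1a (0.71) were called higher and 0 lower, and by the adjusted p alone 3 were higher and 2 lower (median log2 fold change 0.02).

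**Figure D4:**
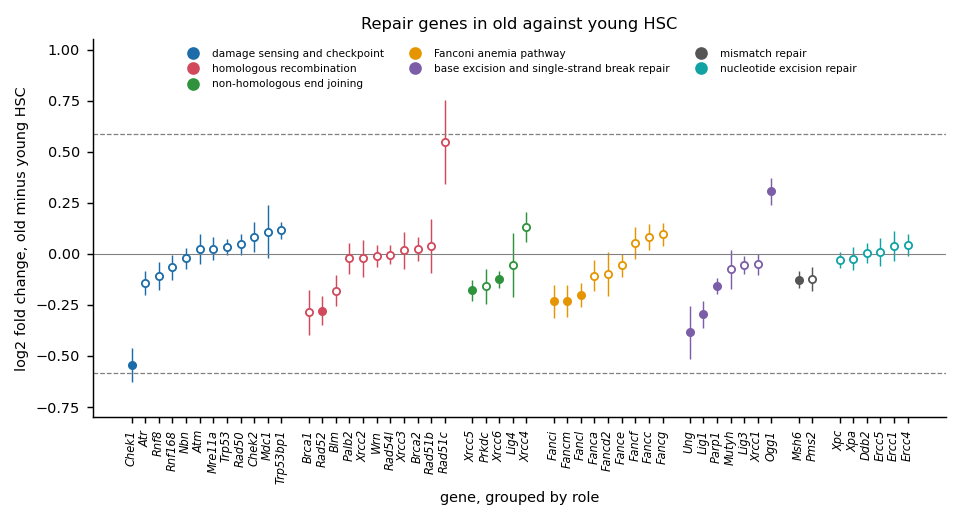
Log2 fold change of the 52 genes between old (n = 8) and young (n = 4) HSC, with bars of 1 SE, grouped by role; filled points have an adjusted p below 0.05 and dashed lines mark a fold of 1.5. No filled point lies beyond a dashed line, Chek1 is lowest at -0.54, and Ogg1 is the one filled point above 0.

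Chromatin at the promoters was measured in separate libraries of young and old HSC. ATAC-seq, in which a transposase cuts open DNA, gave 53 tested regions within 1000 bases before to 100 after the starts of 50 of the 52 genes, in 4 young and 4 old libraries. None was called (fold above 1.5, adjusted p below 0.01, edgeR), where 13% of 89245 regions were. Without the fold, 10 of the 53 regions (18.9%) passed as less accessible in old HSC and 0 as more accessible, against 9.54% of all regions and 25.5% of the 15068 regions at any promoter that passed as less accessible. The median log2 fold change was -0.14 at the 53 regions, -0.14 at all promoters and -0.01 over all regions. The difference between the share of the 53 regions and that of all promoter regions was not tested.

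The largest difference was at Lig3, a ligase of single-strand break repair (chr11:82780752-82781871, mm10), at 15.1 ± 0.642 CPM in young and 10.6 ± 0.632 CPM in old HSC (SD, n = 4 each, log2 fold change -0.49, SE 0.09, adjusted p = 2.7e-05 by edgeR). Among the regions that passed, the homologous recombination gene Xrcc3 (chr12:111813766-111814629) followed, at 69.2 ± 0.814 and 53.4 ± 2.87 CPM (log2 fold change -0.35, SE 0.05, adjusted p = 2.8e-08). Atm, Brca1, Brca2, Rad50, Xrcc2, Lig4, Ogg1 and Xpc made up the rest of those that passed, with log2 fold changes of -0.33 at Rad50 to -0.15 at Ogg1. The Fancd2 region had a log2 fold change of -0.40 but did not pass (SE 0.14, adjusted p = 0.017 by edgeR). The Ogg1 promoter was less accessible in old HSC (adjusted p = 0.0056 by edgeR), while its transcript was higher. Its accessibility fold of -0.15 lay near the median of -0.14 over regions at any promoter.

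H3K27 acetylation, a mark of active promoters, was given as signal at 53 promoter peaks of 50 genes in 2 young and 2 old libraries, and is described without a test. Without overlap of the libraries, 0 of the 53 peaks differed by more than 1.5-fold, against 4.58% of all 13392 promoter peaks. Both old libraries were below both young ones at 13 peaks and above them at 8, where 22.96% and 18.3% of all promoter peaks were. The lowest ratio was at Nbn, with 5.99 and 5.40 in young and 4.11 and 4.09 in old HSC (old over young 0.720), and the highest at Fancg, with 2.53 and 2.18 in young and 2.85 and 3.00 in old HSC (1.24). The median log2 ratio was -0.11 at the 53 peaks and -0.03 at all promoter peaks, and it ranged from -0.24 to 0.03 over the pairings of a single old with a single young library, with -0.0022 when young replicate 1 was left out.

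Btaf1 shRNA was compared with the control shRNA to ask what lowering the short variant does in old HSC, with the 4 shRNA libraries pooled as 1 group. In culture, 0 of the 52 genes were called higher and 0 lower (fold above 1.5 and unadjusted p below 0.05, edgeR), where 3.42% of 19763 genes were called. DESeq2 also called 0, and 12 of the 52 had an unadjusted p below 0.05 in edgeR without the fold, as did 15.3% of all genes. Atr and Blm, the latter named after its values were seen, passed the adjusted p below 0.05 as lower, against 1.66% of all genes lower and 1.7% higher. Atr read 119.6 and 116 CPM in the controls, 101 and 97.4 CPM with shRNA1 and 99.3 and 103 CPM with shRNA2 (log2 fold change -0.22, SE 0.05, adjusted p = 0.017). Blm read 88.8 and 76.6 CPM, 69.7 and 62.2 CPM and 68.6 and 70.1 CPM (log2 fold change -0.28, SE 0.07, adjusted p = 0.038). All 4 shRNA libraries lay below both controls for each gene. Without control replicate 1 the adjusted p was 0.29 for Atr and 0.58 for Blm, and without control replicate 2 it was 0.15 and 0.064. Blm also missed it without shRNA1 replicate 1 (0.066), shRNA1 replicate 2 (0.080) or shRNA2 replicate 2 (0.058).

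Ddb2 read 28.5 and 25.8 CPM in the cultured controls, 34.9 and 33.9 CPM with shRNA1 and 31.6 and 32.5 CPM with shRNA2, and just missed the adjusted p (log2 fold change 0.30, SE 0.08, adjusted p = 0.054), with every shRNA library above both controls. Without shRNA2 replicate 1 it passed as higher (0.32, adjusted p = 0.0495 by edgeR), the one gene of the 52 to do so. Trp53 read 284 and 278 CPM, 274 and 256 CPM and 265 and 268 CPM (log2 fold change -0.07, SE 0.04, adjusted p = 0.43). The other genes named throughout, Atm (0.21), Parp1 (-0.12), Brca2 (-0.17), Xpc (0.15), Fancd2 (-0.11), Brca1 (-0.03) and Prkdc (0.06), had adjusted p of 0.13 to 0.95.

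Of 25 p53 target genes, 8 passed the adjusted p as higher with shRNA in culture and 0 as lower, and the median log2 fold change was 0.25 for this list, 0.00 for all genes and -0.02 for the 52 repair genes. Phlda3, an inhibitor of Akt signalling, read 10.2 and 10.7 CPM in the controls, 20.6 and 20.8 CPM with shRNA1 and 25.3 and 23.5 CPM with shRNA2 (log2 fold change 1.12, SE 0.11, adjusted p = 6.4e-05). Zmat3, an RNA-binding protein, read 5.56 and 5.68 CPM against 8.50 to 14.2 CPM over both shRNAs (1.09, SE 0.19, adjusted p = 0.0077), and Pmaip1, which promotes apoptosis, 2.39 and 2.61 CPM against 3.98 to 6.43 CPM (0.99, SE 0.22, adjusted p = 0.020). All 4 shRNA libraries lay above both controls for these 3 genes. Of the 44 other repair genes, Mgmt, which reverses alkylated guanine, was the one that passed (14.2 and 13.1 CPM in the controls and 22.1 to 25.04 CPM with shRNA, 0.81, SE 0.10, adjusted p = 0.00029). Of the 28 cell cycle genes, 7 passed as lower, the mitotic cyclin Ccnb1 (-0.48) and the kinase Plk1 (-0.39) among them, both named after their values were seen. Interferon response genes summed to 1098 CPM in shRNA2 replicate 1, 289 CPM in shRNA2 replicate 2, 178 to 205 CPM with shRNA1 and 219.8 to 239.8 CPM in the controls. Without shRNA2 replicate 1, 7 of the p53 targets passed as higher and 9 cell cycle genes as lower. The counts fell to 2 p53 targets and 2 cell cycle genes without control replicate 1, and to 3 and 2 without control replicate 2, and the cell cycle count was 4 and 3 without shRNA1 replicate 1 and 2.

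After transplantation 1 of the 52 genes was called higher and 0 lower, where 2.24% of 20350 genes were called. Rad51c read 2.01 and 1.55 CPM in the controls, 3.10 and 2.76 CPM with shRNA1 and 2.19 and 3.98 CPM with shRNA2 (1.68-fold higher, log2 fold change 0.75, SE 0.30, unadjusted p = 0.031, adjusted p = 0.86 by edgeR). The shRNA libraries lay above both controls, and the call was lost without shRNA1 replicate 1, shRNA2 replicate 2 or control replicate 2, each of which left 0 genes called. Without shRNA2 replicate 1, Fancd2 was called as well (log2 fold change 0.61). Of the 52 genes, 6 had an unadjusted p below 0.05, as did 5.59% of all genes, and 0 of all genes tested passed the adjusted p below 0.05 in edgeR. Fancd2 read 11.99 and 13.6 CPM in the controls, 20.6 and 21.6 CPM with shRNA1 and 13.5 and 16.6 CPM with shRNA2 (log2 fold change 0.50, SE 0.19, adjusted p = 0.86), with the shRNA1 pair above the rest.

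The other genes named throughout, Trp53 (0.01), Atm (-0.08), Atr (-0.14), Brca1 (0.23), Brca2 (0.02), Prkdc (-0.15), Parp1 (-0.05), Xpc (-0.05) and Ddb2 (0.12), had adjusted p of 0.93 or more after transplantation. Median log2 fold changes were 0.02 for the 52 genes, 0.02 for the p53 targets and 0.09 for the cell cycle genes. The difference of the shRNA effect between transplantation and culture, tested as an interaction in edgeR, passed the adjusted p for 45 of 21443 genes and for 0 of the 52, the nearest being Mre11a, named after its values were seen, the nuclease of the MRN complex (log2 difference 0.28, SE 0.09, adjusted p = 0.30).

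**Figure D5:**
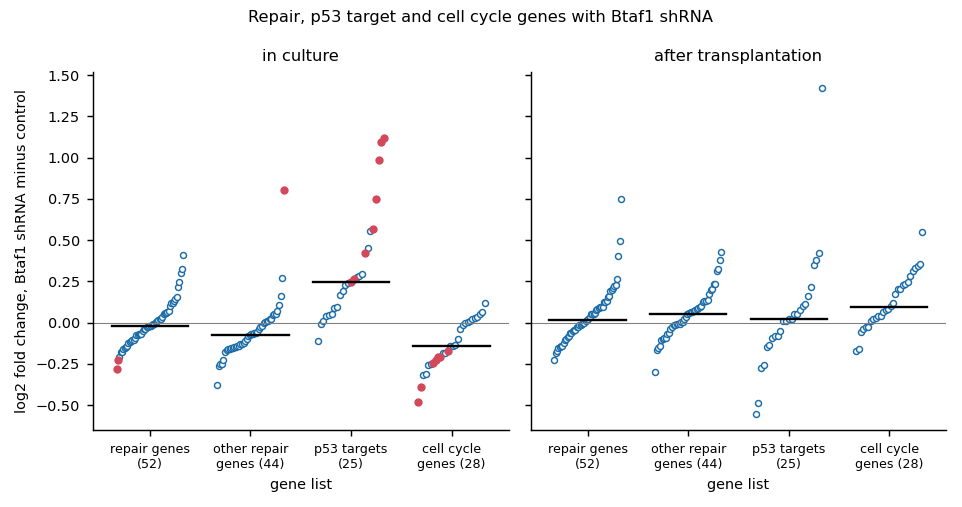
Log2 fold change of each gene between the 4 Btaf1 shRNA and 2 control libraries in culture (left) and after transplantation (right), for the 52 repair genes, 44 other repair genes, 25 p53 target genes and 28 cell cycle genes; red points have an adjusted p below 0.05 and bars are medians. In culture 8 of the 25 p53 targets are red and above 0 while 2 of the 52 repair genes are red and below 0, and no point is red after transplantation.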

How the data were processed

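RNA was measured in 30 libraries of 11 groups. Per the labels and methods, the authors aligned reads to mm10 with STAR and deposited raw counts per gene (featureCounts, GENCODE M22). The authors' ATAC-seq files hold raw counts per merged peak region (BWA, MACS), with no transposase shift stated, and the deposited H3K27ac signal per peak comes from libraries that they scaled to a fixed number of reads. Its columns of the authors' own old-to-young fold changes, and files of other histone marks, were not used here. A further 8 columns of per-sample values, tied to no listed sample, were left out. The 52 genes and the gene lists were chosen with earlier results of these data known. Spike-in rows were removed. Counts were tested with the quasi-likelihood test of edgeR 4.0.16 (R 4.3.3, TMM, filterByExpr, Benjamini-Hochberg over all genes tested) after a check on simulated data, with DESeq2 1.42.0 as an alternative. ATAC-seq regions needed over 1.5 CPM in at least 4 libraries. Named were the genes past the call of a comparison (the 6 largest each way where over 12 passed) and Trp53, Atm, Atr, Brca1, Brca2, Fancd2, Prkdc, Parp1, Xpc and Ddb2 throughout, and of other lists the largest called. Any further gene named was chosen after its values were seen. RPKM used exon lengths of GENCODE M21. No replicate pair differed by less than sampling noise (lowest chi-square per degree of freedom 4.42). No source used here gives the strand setting of the counting, and 17 of the 52 genes share over 5% of their exon length with another gene. The promoter table held no entry for Rad50, Fancd2, Wrn, Prkdc, Ddb2, Xrcc2, Nbn and Xpc.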

Additional observations from a re-analysis of the deposited data

Results flagged for a closer look

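A single library stood apart from its group in 4 of 104 tests of the 52 genes in the young and old HSC, where chance sets apart about 1 in 20. Chek1 read 8.68 CPM in old HSC replicate 7, with the next library at 10.9 CPM. Rad51c read 2.75 CPM in the same library, with the next at 2.08 CPM. Xpc read 107 CPM in young HSC replicate 4, with the next at 102 CPM, and Ddb2 read 41.2 CPM in old HSC replicate 4, with the next at 46.2 CPM.

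The 2 shRNAs gave different effects in culture at 5 genes when tested against each other in edgeR, with 2 libraries each, where 5.59% of 19763 genes passed the same test. After transplantation 0 of the 52 genes and 2 of 20350 passed it. By an unadjusted p below 0.05 (edgeR) 7 of the 52 passed there, a count with no share of all genes beside it. In culture, levels were lower with shRNA1 than with shRNA2 for Brca1 (log2 difference -0.31, adjusted p = 0.0015), Fancm (-0.31, adjusted p = 0.044), Fanci (-0.23, adjusted p = 0.024), Rad54l (-0.20, adjusted p = 0.0084) and Lig1 (-0.20, adjusted p = 0.0064). Brca1 read 77.7 and 80.03 CPM in the controls, 67.2 and 70.2 CPM with shRNA1 and 88.3 and 82.4 CPM with shRNA2.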

How the results depend on the processing

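Over all values and alternatives, 2473 values kept their direction and side of the threshold, 178 lost the threshold, 24 gained it, 31 counts moved by over 1.5 times and 1 changed direction (Atm in young HSC against CMP, -0.091 relative to the median of all genes). With no fold threshold the genes called of 52 were 12 for age, 12 for shRNA in culture, 6 after transplantation, 34 for culture against transplantation, 38 for MEP against GMP, 42 for MEP against CMP and 19 for GMP against CMP, where 20.6%, 15.3%, 5.59%, 48.3%, 61.4%, 64.6% and 34.8% of all genes passed in that order. For young HSC against CMP without the fold, 47 of the 52 and 81.1% of all genes passed. With a fold above 2 the genes called of 52 were 0 for shRNA after transplantation, 6 for culture against transplantation, 7 for MEP against GMP, 6 for MEP against CMP, 1 for GMP against CMP and 22 for young HSC against CMP. These counts at a fold above 2 have no share of all genes beside them. After transplantation the single call became 2 with shRNA1 alone, 0 with shRNA2 alone and 0 by adjusted p. With 1 library left out at a time there were 0 to 1 called genes for age and 0 to 2 for shRNA after transplantation, and 15 to 20, 20 to 21, 20 to 23, 3 to 4 and 34 to 36 in the comparisons from culture against transplantation to young HSC against CMP. A replicate block gave 0, 0, 1, 17, 21, 22, 4 and 35 called genes in the 8 comparisons, so it changed none of these counts. Under the block the adjusted p of Blm with shRNA in culture was 0.052 (edgeR). Same-numbered libraries deviated from their group means with correlations of -0.19 to 0.17, and the main fits used no pairing. Groups of 2 libraries give a single deviation each, so these values cannot exclude a shared origin. The median H3K27ac ratio ranged from -0.19 to -0.0022 over its alternatives. Groups of 2 libraries limit the precision of the progenitor and shRNA comparisons, and genes of few reads such as Rad51c had wide errors.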
